A study of Mus musculus with 35 samples.

Results

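Stem cells that carried the activating JAK2-V617F kinase mutation and had lost both Ezh2 alleles were set against stem cells with JAK2-V617F and intact Ezh2. The cells were long-term haematopoietic stem cells of mice (LT-HSCs), which renew themselves and give rise to all blood lineages, and RNA from 1000 sorted cells made each library. Libraries were taken by their titles: 6 were labelled JAK2-V617F with Ezh2 -/- (here JAK2-VF Ezh2-null) and 6 were labelled JAK2-V617F with SclCre alone (here JAK2-VF), 12 of the 35 libraries of the series. Every animal in the series, controls included, carried SclCre, a Cre recombinase driven by the Scl gene and active in blood stem cells. The JAK2-VF Ezh2-null group had 3 female libraries in batch 1, and 2 female and 1 male libraries in batch 2. The JAK2-VF group had 2 female libraries in batch 1 and 4 male libraries in batch 2. Sex was therefore unbalanced, at 5 females and 1 male against 2 females and 4 males, and the fit had terms for batch and sex. The other groups, used for side-by-side values and for the spread, were 8 JAK2-VF Ezh2-heterozygous, 4 Ezh2-null, 7 Ezh2-heterozygous and 4 control libraries (SclCre with neither change). In the group labelled Ezh2-heterozygous, 2 libraries stood apart from their labels. Batch 1 replicate 3 had 0 of 831 Ezh2 counts in a separately counted stretch of Ezh2 (a share of up to 0.361%), and batch 1 replicate 1, labelled male, had a marker RNA of female cells at 391 CPM (counts scaled to library size), between 0.448 to 14.4 CPM in the other male and 590.2 to 1351 CPM in the female libraries. Without both, 76 genes were called between JAK2-VF Ezh2-null and JAK2-VF in place of 71, with 67 in common. Batch 2 replicates 1 and 3 of the same group had shares of 1.74% and 1.77%, against 4.79 to 9.5% in its remaining libraries, batch 1 replicate 1 included. The labels give no ages and do not tie libraries to animals, so the p-values reflect only how far these libraries spread, which may be technical.

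EZH2 is the main catalytic subunit of Polycomb repressive complex 2 (PRC2), which places the methyl marks on lysine 27 of histone H3 that keep developmental genes silent. EZH1 is its less active relative, and EED and SUZ12 are needed by both. JAK2-V617F signals without cytokine and drives myeloproliferative neoplasms, in which loss of EZH2 is a known second event. Interferons, which signal through JAK kinases and STAT factors, switch on a large set of antiviral genes. Many of these genes carry an interferon-stimulated response element (ISRE) in their promoters.

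The whole Ezh2 gene was lower without its alleles. In CPM after TMM normalisation, the unit of every level here, the lowest, median and highest of the JAK2-VF Ezh2-null libraries were 18.5, 25.8 and 39.2 CPM, against 52.1, 73.5 and 101 CPM in JAK2-VF libraries. The groups did not overlap. The log2 change, always JAK2-VF Ezh2-null over JAK2-VF and with its SE, was -1.5 ± 0.21 (edgeR adjusted p = 8.22e-05). A stretch of Ezh2 that the submitters counted separately had 0 of 5046 Ezh2 counts in JAK2-VF Ezh2-null libraries, which allowed shares of up to 0.213 to 0.634% in single libraries. It had 1005 of 13303 counts in JAK2-VF libraries, a share of 7.62 ± 0.97% (SD, n = 6), and the exact two-sided permutation p of 0.00216 was the smallest these group sizes allow. Within batch 1 the shares differed by -8.51 percentage points (exact permutation p = 0.2) and within batch 2 by -7.18 points (exact permutation p = 0.0571), again the smallest values possible. That it is the deleted stretch is not stated in the labels.

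No other subunit of PRC2 passed the threshold. Of 12 subunit genes Ezh2 alone was called, and the median log2 change of the 12 was 0.06, against 0.01 over all 14945 genes tested. Ezh1 was at 78.8 ± 8.28 CPM in JAK2-VF Ezh2-null and 74.5 ± 18.7 CPM in JAK2-VF libraries (SD, n = 6 each; log2 0.13 ± 0.16, edgeR adjusted p = 0.985). None of 21 subunit genes of PRC1, the partner complex that binds the PRC2 mark, passed. The 2 with the smallest p were Bmi1 (log2 0.79 ± 0.23, edgeR adjusted p = 0.157) and Phc1 (log2 0.55 ± 0.19, edgeR adjusted p = 0.308). Jak2, which counts wild-type and mutant RNA together if both are present, was at 88.6 ± 31.7 CPM in JAK2-VF Ezh2-null and 67.4 ± 17.2 CPM in JAK2-VF (log2 0.22 ± 0.15, edgeR adjusted p = 0.885).

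Total counts ran from 20.22 to 48.56 M in the 12 libraries, with medians of 27.8 M in JAK2-VF Ezh2-null and 31.6 M in JAK2-VF, and 13967 to 15160 genes had counts. Genes that mark LT-HSCs were present in both groups, for example Procr at 105 ± 25.2 CPM in JAK2-VF Ezh2-null and 84.1 ± 21.3 CPM in JAK2-VF and Mecom at 173 ± 29.1 CPM in JAK2-VF Ezh2-null and 140.1 ± 33.5 CPM in JAK2-VF. The T-cell gene Cd3e reached at most 2.52 CPM in any of the 12 libraries. Mpo, a gene of early granulocyte cells, spread widely, over 24.7 to 1098 CPM in JAK2-VF Ezh2-null and 151 to 2295 CPM in JAK2-VF libraries. In bulk RNA, fewer cells of a type and less RNA per cell cannot be told apart. One library stood apart: JAK2-VF Ezh2-null batch 1 replicate 2 had the highest mean log2 level of the interferon-induced GTPases (6.55, against 5.10 for the lowest library of its group), of MHC class II genes (6.93, group lowest 5.37) and of megakaryocyte genes (6.18, group lowest 4.45). The lists it moves most are given with and without it.

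In all, 60 genes rose and 11 fell at an edgeR adjusted p under 0.05, which is 0.401% and 0.0736% of the genes tested. All 71 kept their direction in batch 1 alone, in batch 2 alone and among females alone. The 71 were called on these same libraries, so this is not independent support. Batch 1 alone called 1 gene, which was not among the 71, and batch 2 alone called 22, of which 18 were. Of the 60 that rose, 30 had every JAK2-VF Ezh2-null library above every JAK2-VF library, a pattern that 119 genes, 0.796% of those tested, showed in all. Of the 11 that fell, 5 had every library below, as did 26 genes (0.174%) in all. The 60 include both Hbb-bt and its copy Hbb-b2, which have identical counts. The median log2 change of the rising genes was 1.15. Leaving out each library in turn left 38 to 66 genes called, and 33 of the 71 passed in all 12 such fits. The lowest count, 38, was without JAK2-VF batch 1 replicate 1, and 66 genes were called without JAK2-VF Ezh2-null batch 1 replicate 2, of which 51 were among the 71.

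Of 20 interferon-induced GTPase genes tested, 8 rose and none fell, all 20 had positive log2 values and their median was 1.02, against 0.01 over all genes. These proteins attack the membranes of compartments that hold microbes, and the guanylate-binding proteins (Gbp genes) and the immunity-related GTPases (Irgm1, Iigp1, Tgtp1, Tgtp2) are their main families.

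For Gbp3, JAK2-VF Ezh2-null libraries had 160.2, 214 and 296 CPM as lowest, median and highest, against 72.3, 92.2 and 116 CPM in JAK2-VF libraries, so that the groups were well apart (log2 1.2 ± 0.16, edgeR adjusted p = 3e-05). Its neighbour Gbp7 had 635, 789.8 and 1179 CPM in JAK2-VF Ezh2-null, against 344, 443 and 468 CPM in JAK2-VF, also without overlap (log2 0.9 ± 0.12, edgeR adjusted p = 3e-05). Gbp5, which promotes inflammasome assembly, had 20.6, 30.8 and 68 CPM in JAK2-VF Ezh2-null, against 9.6, 14.4 and 23.4 CPM in JAK2-VF, with 5 of 6 JAK2-VF Ezh2-null libraries above every JAK2-VF library (log2 1.37 ± 0.31, edgeR adjusted p = 0.0255). In Gbp2, at 158, 194 and 509 CPM in JAK2-VF Ezh2-null, against 93.5, 124 and 139 CPM in JAK2-VF, a single library set the top value (log2 0.89 ± 0.21, edgeR adjusted p = 0.0385). These 4 genes neighbour one another on chromosome 3, and they are among the 14 of the 60 rising genes that lie within 3 tested genes of another rising gene.

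Among the immunity-related GTPases, Iigp1 was at 206, 303 and 1125 CPM in JAK2-VF Ezh2-null, against 99.1, 138 and 200.2 CPM in JAK2-VF, and its groups did not overlap (log2 1.36 ± 0.26, edgeR adjusted p = 0.00592). Irgm1, a regulator of the family, had 232, 298 and 520.2 CPM in JAK2-VF Ezh2-null, against 164, 189 and 219 CPM in JAK2-VF (log2 0.77 ± 0.18, edgeR adjusted p = 0.0294). The near-identical neighbours Tgtp1 and Tgtp2 had log2 changes of 1.01 ± 0.24 and 0.84 ± 0.19 (edgeR adjusted p = 0.0471 and 0.0218), and reads may be split between them. In Iigp1, Irgm1, Tgtp1 and Tgtp2 every JAK2-VF Ezh2-null library was above every JAK2-VF library. Without JAK2-VF Ezh2-null batch 1 replicate 2, the top library in all 8 called genes, the list had 3 genes called (Gbp3, Gbp7 and Iigp1), 19 positive values and a median of 0.71. Leaving out JAK2-VF batch 1 replicate 1, batch 1 replicate 2 or batch 2 replicate 4 also left 3 called, with medians of 0.92, 1.03 and 0.99, and leaving out JAK2-VF Ezh2-null batch 1 replicate 1 left 5. Within batch 1 the GTPases had a median of 1.42 with none called, and within batch 2 a median of 0.63 with 2 called, with all 20 values positive in each. In a fit of only the 12 compared libraries with group and batch, Gbp3 and Gbp7 alone of the 8 called genes passed. The others had edgeR adjusted p from 0.0696 (Iigp1) to 0.121 (Gbp2). Gbp2, Gbp5, Irgm1, Tgtp1 and Tgtp2 also missed the threshold with limma-voom, and with a term for each replicate number of each batch.

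Promoters of called GTPases other than Iigp1, and that of Ifit1 from the second interferon list, are shown because they share a motif. Iigp1, Zbp1 and Usp18 had no promoter entry and were not searched. The ISRE was searched as TTTCNNTTTC on both strands (read as GAAANNGAAA where it lies on the other strand) in the 250 bases before each RefSeq start, build GRCm38.p6. Capitals mark the match, each line runs 5′ to 3′ along the strand of the gene, and the gene IDs were matched to RefSeq entries.
Gbp2 (chr3:142620579-142620638, + strand): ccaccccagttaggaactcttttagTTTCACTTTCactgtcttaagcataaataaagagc
Gbp3 (chr3:142559980-142560039, + strand): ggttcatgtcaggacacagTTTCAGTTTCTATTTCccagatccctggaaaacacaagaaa
Gbp5 (chr3:142496744-142496803, + strand): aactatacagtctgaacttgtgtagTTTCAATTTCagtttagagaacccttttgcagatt
Gbp7 (chr3:142530258-142530317, + strand): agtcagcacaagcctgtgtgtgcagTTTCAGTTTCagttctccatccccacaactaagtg
Irgm1 (chr11:48871421-48871469, - strand): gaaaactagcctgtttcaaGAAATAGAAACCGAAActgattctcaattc
Tgtp1 (chr11:48992289-48992348, - strand): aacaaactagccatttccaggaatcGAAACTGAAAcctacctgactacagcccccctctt
Tgtp2 (chr11:49064248-49064307, - strand): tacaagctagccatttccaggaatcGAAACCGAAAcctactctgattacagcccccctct
Ifit1 (chr19:34640779-34640838, + strand): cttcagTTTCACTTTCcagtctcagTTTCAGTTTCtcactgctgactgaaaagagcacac

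All 4 Gbp promoters and both of the paired Tgtp promoters have the match, on opposite strands in the 2 families, and those of Gbp3, Ifit1 and Irgm1 have 2 overlapping or separate matches. Of the 60 rising genes, 45 had a promoter entry and 9 of those (20%) had the motif. The rate was 8 of 14 (57.1%) in rising genes of the 2 interferon lists and 1 of 31 (3.23%) in the other rising genes (that 1 was Gm12250, known as an interferon-induced GTPase but not in the lists, and named here after its values were seen), against 381 of 11708 (3.25%) of all tested genes with an entry. Genes of the interferon lists that did not pass had it in 19 of 42 (45.2%).

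Of 60 other interferon-stimulated genes tested, 9 rose and none fell, 58 had positive values and the median log2 change was 0.52. The rising genes span sensing (Zbp1), signal amplification (Irf7), feedback (Usp18), block of viral entry (Ifitm1, Ifitm3) and block of viral RNA (Ifit1, Oasl2), together with Ifi44 and the apoptosis-linked Xaf1.

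Ifit1, which binds foreign RNA, had 51.4, 84.9 and 116 CPM in JAK2-VF Ezh2-null libraries, against 14.9, 20.7 and 38.1 CPM in JAK2-VF libraries, with no overlap (log2 1.64 ± 0.29, edgeR adjusted p = 0.00248). Zbp1, a sensor of Z-form nucleic acids, had 21.8, 30.7 and 59.8 CPM in JAK2-VF Ezh2-null, against 4.88, 13.7 and 16.7 CPM in JAK2-VF, again with no overlap (log2 1.5 ± 0.28, edgeR adjusted p = 0.00377). Ifitm3 was at 788, 943 and 1212 CPM in JAK2-VF Ezh2-null, against 570.0, 655 and 929 CPM in JAK2-VF (log2 0.54 ± 0.11, edgeR adjusted p = 0.00819), and 3 of the 6 JAK2-VF Ezh2-null libraries were above every JAK2-VF library. Ifi44 had 85.4, 137 and 207 CPM in JAK2-VF Ezh2-null, against 40.4, 59.1 and 109.5 CPM in JAK2-VF, and a single JAK2-VF Ezh2-null library, the lowest, fell within the JAK2-VF range (log2 1 ± 0.22, edgeR adjusted p = 0.0192).

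The remaining 5 had log2 changes between 0.61 (Oasl2) and 1.16 (Irf7), with edgeR adjusted p from 0.0192 (Xaf1) to 0.0442 (Irf7). Usp18, which strips ISG15 and damps the type I interferon receptor, averaged 93.3 ± 23.5 CPM in JAK2-VF Ezh2-null against 43.8 ± 15.6 CPM in JAK2-VF. Irf7, the transcription factor that amplifies type I interferon, averaged 90.8 ± 31.3 CPM in JAK2-VF Ezh2-null against 40.7 ± 11.6 CPM in JAK2-VF. Ifit1, Zbp1 and Ifitm3 passed in all 12 fits that left out a library, whereas Ifi44 missed the threshold in 1, Xaf1 in 3, Oasl2 in 4, Ifitm1 and Usp18 in 7 each and Irf7 in 10. Without JAK2-VF batch 1 replicate 1 the list had 3 genes called with a median of 0.50, and without JAK2-VF Ezh2-null batch 1 replicate 2 it had 5, with a median of 0.48. Without the 2 libraries labelled Ezh2-heterozygous that stood apart, 14 of the interferon-stimulated genes were called. In batch 1 alone the median was 0.61 with 57 of 60 positive, and in batch 2 alone it was 0.46 with 56 positive. The plot of the interferon-induced genes shows each library.

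**Figure D1:**
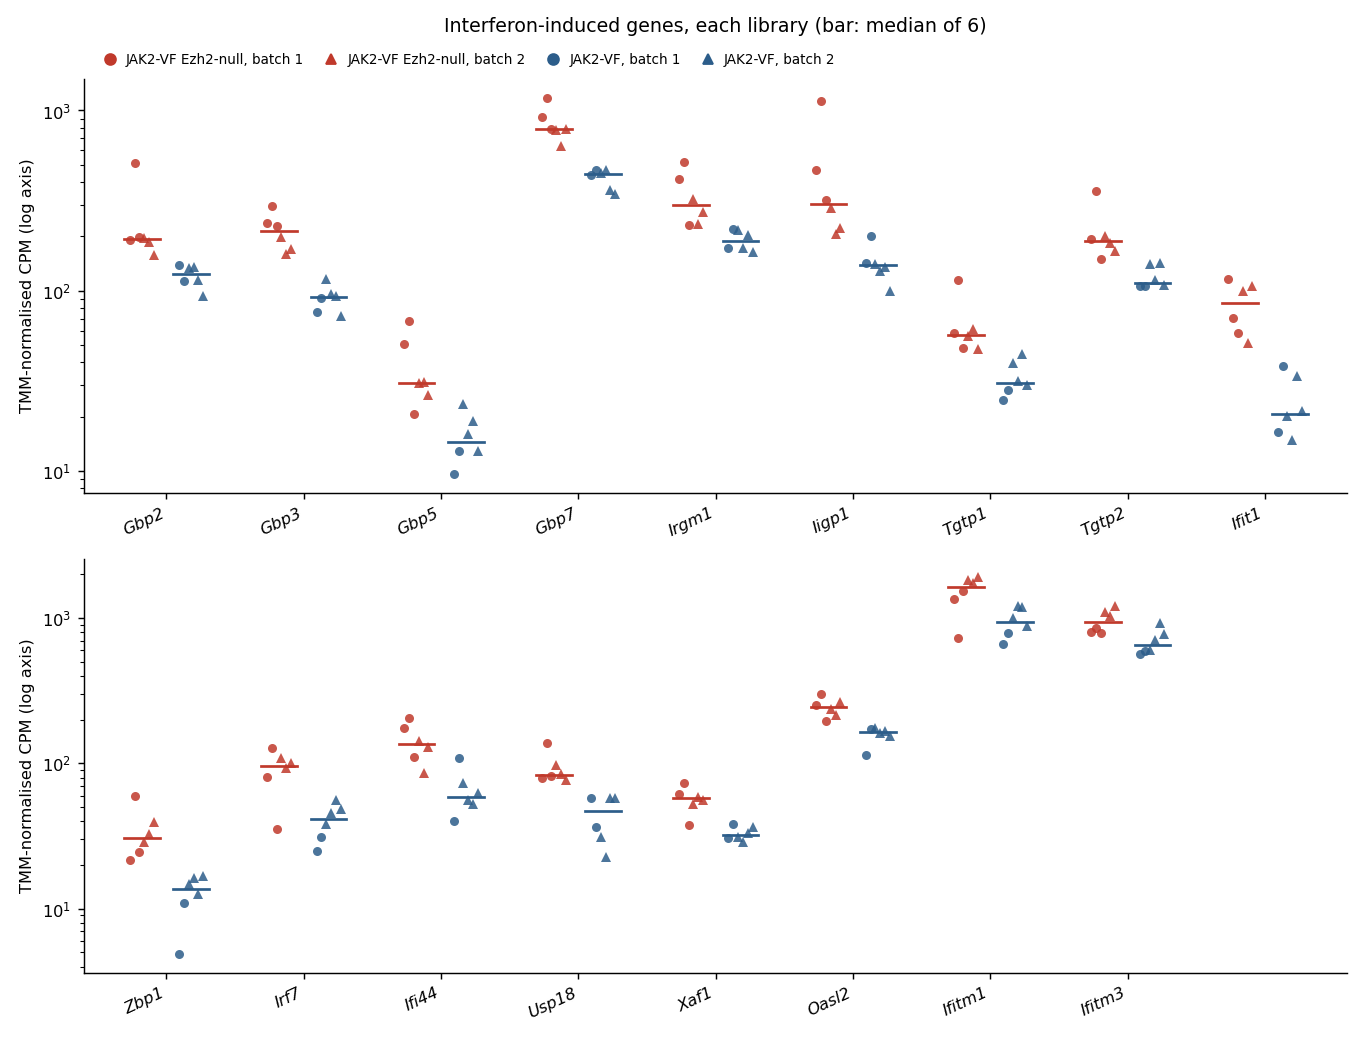
Level of the 17 called interferon-induced genes in each library (TMM-normalised CPM, log axis), JAK2-VF Ezh2-null in red left of JAK2-VF in blue, circles for batch 1, triangles for batch 2, bars for the median of 6 libraries. Gbp2, Gbp3, Gbp7, Irgm1, Iigp1, Tgtp1, Tgtp2, Ifit1, Zbp1, Usp18 and Oasl2 show no overlap between the groups. The red circle at 509 CPM of Gbp2 and 1125 CPM of Iigp1 is JAK2-VF Ezh2-null batch 1 replicate 2.

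A separate list of interferon pathway components gave no call. None of its 17 tested receptor, kinase, sensor and regulator genes passed, and their median log2 change was 0.09. Zbp1, Irf7 and Usp18, which rose and also sense or regulate the signal, were counted among the interferon-stimulated genes, not in this list. Socs1, the feedback inhibitor of the pathway, was at 3.32 ± 0.855 CPM in JAK2-VF Ezh2-null against 0.962 ± 0.368 CPM in JAK2-VF and missed the threshold (log2 1.96 ± 0.84, edgeR adjusted p = 0.562). Sting1 was at 115 ± 18 CPM in JAK2-VF Ezh2-null against 90.6 ± 8.3 CPM in JAK2-VF (log2 0.31 ± 0.18, edgeR adjusted p = 0.816). Of 22 genes of MHC class I presentation, which interferon also induces, none passed, 18 had positive values and the median was 0.15. The smallest p there were those of Tap1, a peptide transporter subunit (log2 0.43 ± 0.14, edgeR adjusted p = 0.249), and B2m, the shared light chain (log2 0.24 ± 0.09, edgeR adjusted p = 0.374).

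The result for MHC class II genes, which present peptides to helper T cells, turned on 1 library and on the batch. None of 9 passed, 8 had negative values and the median was -0.14. H2-Oa and H2-DMa had the smallest p (log2 -0.39 ± 0.18 and -0.14 ± 0.11, edgeR adjusted p = 0.652 and 0.935). Without JAK2-VF Ezh2-null batch 1 replicate 2 all 9 were negative with a median of -0.5, and H2-Aa (log2 -0.95, edgeR adjusted p = 0.0118) and H2-Ab1 (log2 -0.76, edgeR adjusted p = 0.0337), named after their values were seen, passed as lower. In batch 1 alone 8 of the MHC class II genes were positive with a median of 0.32, and in batch 2 alone none was, with a median of -0.63.

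A further set of genes was low in JAK2-VF libraries and higher in JAK2-VF Ezh2-null libraries. It held Lin28b, Mab21l2, Ramp2, Hbb-bt, Pacsin3, Rorb, Serpina3f, Mapk12 and Bex2. Not all of them were low in control libraries, which have intact Ezh2. Ramp2, Mapk12 and Pacsin3 averaged 17.9, 12 and 5.54 CPM in control, against 6.59, 5.84 and 6.35 CPM in JAK2-VF Ezh2-null. The rest had control means of 0.491 (Lin28b) to 30.1 CPM (Hbb-bt), each below its JAK2-VF Ezh2-null mean.

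Lin28b, which blocks maturation of let-7 microRNAs and marks fetal blood stem cells, had 2.55, 6.95 and 12.2 CPM in JAK2-VF Ezh2-null libraries, against 0, 0 and 0.0649 CPM in JAK2-VF libraries. It had counts in every JAK2-VF Ezh2-null library (1262 in all) and in 1 JAK2-VF library (2 counts). The ratio per unit of depth was 602.5 with an exact counting interval of 166.4 to 4980.2, which covers counting error only (edgeR adjusted p = 0.00839). Without JAK2-VF Ezh2-null batch 2 replicate 2 the adjusted p was 0.0799. Its paralogue Lin28a stayed at trace level, at 0.284 ± 0.314 CPM in JAK2-VF Ezh2-null and 0.895 ± 1.34 CPM in JAK2-VF.

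Mab21l2, a gene of eye and body-wall development and the only rising member of the Polycomb-silenced developmental regulators, had 36.9, 67.1 and 123 CPM in JAK2-VF Ezh2-null, against 0, 1.57 and 7.15 CPM in JAK2-VF (log2 4.89 ± 0.88, edgeR adjusted p = 0.00362). Every JAK2-VF Ezh2-null library was at least 5 times above the highest JAK2-VF library. Its paralogue Mab21l1 was at 5.94 ± 4.98 CPM in JAK2-VF Ezh2-null against 1.37 ± 2.44 CPM in JAK2-VF and missed the threshold (log2 1.99 ± 1.54, edgeR adjusted p = 0.927). Of the 57 regulators in the files, such as Hoxc, Hoxd, Pax, Sox and Gata genes, 44 had too few counts to be tested, and of the 13 tested 5 had positive and 8 negative values. Without JAK2-VF batch 1 replicate 1 this balance turned, with 8 positive, as it did with no term for sex. Among the HoxA and HoxB genes, of which 18 were tested, none passed.

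Hbb-bt, an adult beta-globin gene, had 66.4, 248 and 359 CPM in JAK2-VF Ezh2-null, against 12.6, 24.6 and 39.1 CPM in JAK2-VF, with no overlap (log2 3.47 ± 0.46, edgeR adjusted p = 5.79e-05). Its counts are identical to those of the copy Hbb-b2, so the change cannot be assigned to one of them. None of the other 5 globin genes tested was called. Hba-a1, an alpha-globin gene, stayed at 0 to 0.292 CPM in JAK2-VF Ezh2-null libraries, while JAK2-VF libraries were at 0 to 0.098 CPM except in batch 2 replicates 3 and 4, at 32.4 and 11.1 CPM. Hbb-bs, the other adult beta-globin, was at 0.504 to 2.19 CPM in JAK2-VF Ezh2-null, against 0.857 to 1.38 CPM in 4 JAK2-VF libraries and 35.9 and 14.7 CPM in the same 2. Alas2, the haem synthesis enzyme of red-cell precursors, averaged 1.31 CPM in JAK2-VF Ezh2-null and 2.51 CPM in JAK2-VF. None of 27 erythroid genes passed, and the one with the smallest p was Rhag, a subunit of the Rh membrane complex, at 100.1 ± 12.3 CPM in JAK2-VF Ezh2-null against 38.5 ± 10.8 CPM in JAK2-VF (log2 1.1 ± 0.29, edgeR adjusted p = 0.097).

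Ramp2, the partner of the adrenomedullin receptor, had 1.43, 4.03 and 20.3 CPM in JAK2-VF Ezh2-null, against 0, 0.148 and 1.06 CPM in JAK2-VF, without overlap (log2 4.64 ± 0.93, edgeR adjusted p = 0.00819). Rorb, an orphan nuclear receptor of retina and brain, had 18.6, 28.5 and 40.1 CPM in JAK2-VF Ezh2-null, against 1.18, 2.27 and 15.4 CPM in JAK2-VF. A single JAK2-VF library, batch 1 replicate 2, set its top value, and the groups still did not overlap (log2 2.5 ± 0.54, edgeR adjusted p = 0.018). Bex2, a brain-expressed gene of the X chromosome, had 14.4, 19.6 and 25.4 CPM in JAK2-VF Ezh2-null, against 2.41, 4 and 11 CPM in JAK2-VF (log2 2.01 ± 0.34, edgeR adjusted p = 0.00118), and was the only one of 10 tested genes of that X-linked family region to pass. Pacsin3, of membrane trafficking, had 3.53, 6.68 and 8.41 CPM in JAK2-VF Ezh2-null, against 0.0428, 1.16 and 2.56 CPM in JAK2-VF, with no overlap (log2 2.9 ± 0.7, edgeR adjusted p = 0.0446). Mapk12, the p38-gamma kinase, had 0.853, 6.16 and 8.65 CPM in JAK2-VF Ezh2-null, against 0.257, 2.18 and 4.02 CPM in JAK2-VF, and its lowest JAK2-VF Ezh2-null library lay within the JAK2-VF range (log2 2.46 ± 0.54, edgeR adjusted p = 0.0204). Calls of Pacsin3 were lost in 10 of the 12 fits that left out a library, and those of Rorb and Mapk12 in 3 each. Mapk12 also missed the threshold with no term for sex (edgeR adjusted p = 0.285), with limma-voom (limma-voom adjusted p = 0.126) and in the 12 compared libraries with group and batch (edgeR adjusted p = 0.214).

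The promoters of Lin28b, Mab21l2 and Hbb-bt are shown, with each CpG in capitals, because PRC2 targets are typically rich in CpG. The windows are the 250 bases before the RefSeq start on the strand of the gene, build GRCm38.p6.
Mab21l2 (chr3:86548284-86548533, - strand): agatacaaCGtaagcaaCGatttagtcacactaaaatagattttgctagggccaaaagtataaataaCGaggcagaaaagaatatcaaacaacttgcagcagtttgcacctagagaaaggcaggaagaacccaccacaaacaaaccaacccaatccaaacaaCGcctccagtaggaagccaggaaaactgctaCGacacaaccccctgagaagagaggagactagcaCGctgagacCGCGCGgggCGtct
Lin28b (chr10:45470202-45470451, - strand): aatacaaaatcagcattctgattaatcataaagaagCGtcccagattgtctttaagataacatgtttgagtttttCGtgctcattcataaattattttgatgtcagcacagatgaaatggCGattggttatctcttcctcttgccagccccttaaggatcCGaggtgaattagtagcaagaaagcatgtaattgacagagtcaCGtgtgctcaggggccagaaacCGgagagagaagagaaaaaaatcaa
Hbb-bt (chr7:103813924-103814173, - strand): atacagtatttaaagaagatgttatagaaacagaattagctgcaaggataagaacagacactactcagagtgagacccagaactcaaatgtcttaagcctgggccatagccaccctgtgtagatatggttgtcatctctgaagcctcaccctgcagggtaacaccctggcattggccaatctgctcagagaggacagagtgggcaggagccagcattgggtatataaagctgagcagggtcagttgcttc

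They have 10, 6 and 0 CpG. The median was 4 over the 45 rising genes with an entry, 6 in those outside the interferon lists and 3 in those inside, against 16 over all tested genes and 13 over the falling genes. For a gene with several starts the window with the most CpG was counted.

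**Figure D2:**
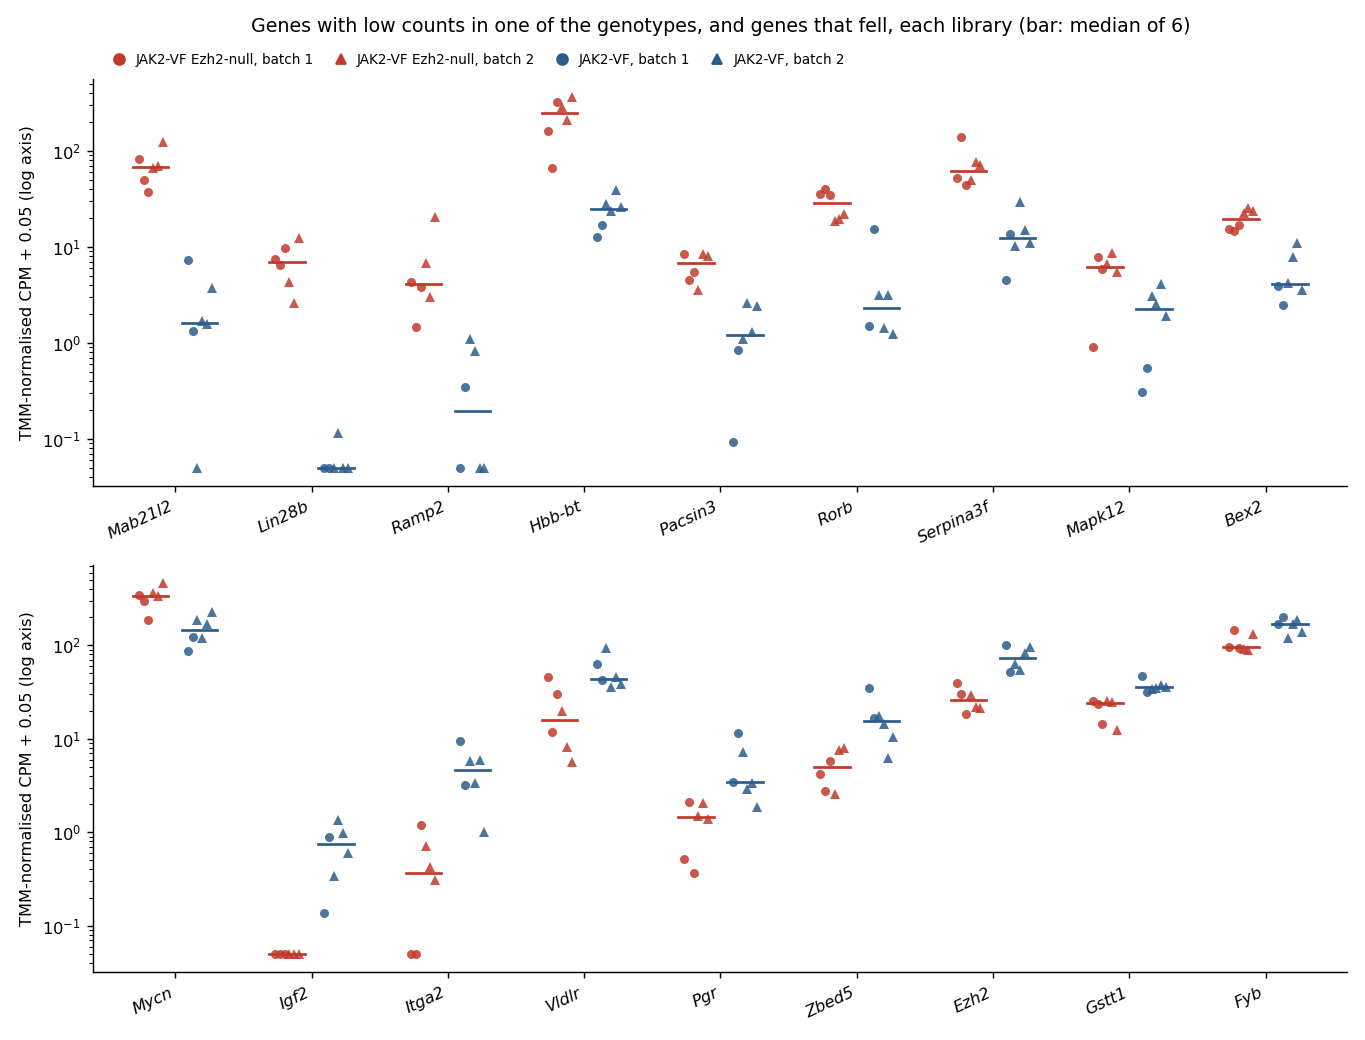
Level of genes with low counts in one of the genotypes and of genes that fell, in each library (TMM-normalised CPM + 0.05, log axis), JAK2-VF Ezh2-null in red left of JAK2-VF in blue, circles for batch 1, triangles for batch 2, bars for the median of 6. Lin28b and Igf2 are the extreme cases: Lin28b has counts in 1 of the 6 JAK2-VF libraries, and Igf2 in none of the JAK2-VF Ezh2-null libraries.

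Of 45 genes of a stem-cell signature 6 rose and none fell, 31 had positive values and the median was 0.16. Ndn, an imprinted gene that restrains stem-cell growth, had 56.4, 95.7 and 108 CPM in JAK2-VF Ezh2-null libraries, against 32.3, 55.3 and 64.9 CPM in JAK2-VF libraries (log2 0.97 ± 0.13, edgeR adjusted p = 3e-05). Its level also differed by batch, and within each batch the groups were apart: 71.3 CPM in JAK2-VF Ezh2-null against 32.6 CPM in JAK2-VF on average in batch 1 and 107 CPM in JAK2-VF Ezh2-null against 59.3 CPM in JAK2-VF in batch 2. Ltb, the lymphotoxin-beta gene, behaved likewise, at 47.1 CPM in JAK2-VF Ezh2-null against 19.7 CPM in JAK2-VF and 101 CPM in JAK2-VF Ezh2-null against 57.5 CPM in JAK2-VF (log2 1.01 ± 0.19, edgeR adjusted p = 0.00359). Gng11, a G-protein gamma subunit, averaged 122 ± 40.1 CPM in JAK2-VF Ezh2-null against 72 ± 12 CPM in JAK2-VF (log2 0.75 ± 0.14, edgeR adjusted p = 0.00417). Mycn, which sustains stem-cell proliferation, averaged 332 ± 89.2 CPM in JAK2-VF Ezh2-null against 151 ± 50.8 CPM in JAK2-VF (log2 1.38 ± 0.31, edgeR adjusted p = 0.03), a call lost in 8 of the 12 fits that left out a library. The signature also holds Ramp2 and Ifitm1.

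Igf2 and Igf2r, a growth factor gene and the gene of its decoy receptor, moved in opposite directions. Igf2, the fetal growth factor, had 0 counts in the 6 JAK2-VF Ezh2-null libraries and 119 counts in the 6 JAK2-VF libraries, where it ranged over 0.0857 to 1.3 CPM. With a floor of 3 counts for the 6 libraries together it was at least 41.5-fold lower in JAK2-VF Ezh2-null (edgeR adjusted p = 0.00819). Igf2 was not called by limma-voom (limma-voom adjusted p = 0.109). In a fit of only the 12 compared libraries with group and batch it had too few counts to be tested. Igf2r, the imprinted receptor that clears IGF2, had 31.1, 36 and 43.3 CPM in JAK2-VF Ezh2-null, against 14.1, 20.4 and 26.2 CPM in JAK2-VF, with no overlap (log2 0.84 ± 0.15, edgeR adjusted p = 0.00288). JAK2-VF libraries were the lower reference for both genes. Igf2 averaged 0.666 CPM in JAK2-VF, 6.68 CPM in control and 6.18 CPM in Ezh2-null libraries. Igf2r averaged 20.6, 37.8 and 47.1 CPM in the same groups, against 36.6 CPM in JAK2-VF Ezh2-null. Of 25 imprinted genes tested, Ndn and Igf2r rose and Igf2 fell. Of 13 oncofetal genes tested, Lin28b and Ndn rose and Igf2 fell, with a list median of 0.81.

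Cytokine feedback and stress genes gave single calls. Socs2, a feedback inhibitor induced by STAT5, averaged 228 ± 67.9 CPM in JAK2-VF Ezh2-null against 140.1 ± 25.2 CPM in JAK2-VF (log2 0.85 ± 0.21, edgeR adjusted p = 0.0484), the only one of 25 JAK-STAT feedback and survival genes to pass, and its call was lost in 11 of the 12 fits that left out a library. The median of that list was 0.15. Zmat3, an RNA-binding protein induced by p53, had 6.04, 13.5 and 39.4 CPM in JAK2-VF Ezh2-null, against 2.01, 3.44 and 6.25 CPM in JAK2-VF (log2 2 ± 0.4, edgeR adjusted p = 0.0084, or 0.0525 without JAK2-VF Ezh2-null batch 2 replicate 2). It was the only one of 18 p53 target genes to pass. Its mean was 27.8 CPM in JAK2-VF Ezh2-null against 5.42 CPM in JAK2-VF in batch 1 and 9.02 CPM in JAK2-VF Ezh2-null against 2.82 CPM in JAK2-VF in batch 2. Xbp1, the transcription factor of the unfolded protein response, averaged 354 ± 96.6 CPM in JAK2-VF Ezh2-null against 216 ± 63.2 CPM in JAK2-VF (log2 0.84 ± 0.16, edgeR adjusted p = 0.00459).

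Several genes best known from immune cells also rose. Lgals1, the glycan-binding galectin-1, had 31.8, 46.4 and 59.5 CPM in JAK2-VF Ezh2-null, against 13.1, 19.6 and 26.6 CPM in JAK2-VF, without overlap (log2 1.39 ± 0.2, edgeR adjusted p = 9.28e-05). Serpina3f, a serine protease inhibitor, had 44.3, 61.3 and 137 CPM in JAK2-VF Ezh2-null, against 4.41, 12.2 and 29.1 CPM in JAK2-VF, without overlap (log2 2.47 ± 0.41, edgeR adjusted p = 0.000799), and its neighbour Serpina3g averaged 953 ± 187 CPM in JAK2-VF Ezh2-null against 576 ± 136 CPM in JAK2-VF. Gimap3, a GTPase of lymphocyte survival, had 45, 94.3 and 151 CPM in JAK2-VF Ezh2-null, against 11.7, 41.1 and 58.7 CPM in JAK2-VF (log2 1.66 ± 0.32, edgeR adjusted p = 0.00604), with its relative Gimap4 at 69.8 ± 19.9 CPM in JAK2-VF Ezh2-null against 29.8 ± 18.2 CPM in JAK2-VF. The neighbours Ms4a6b and Ms4a6c had log2 changes of 1.18 ± 0.18 and 1.27 ± 0.27 (edgeR adjusted p = 0.00017 and 0.0149). Ebi3, the subunit shared by interleukins 27 and 35, and Tox, a chromatin factor of T-cell development, had log2 changes of 1.21 ± 0.19 and 0.99 ± 0.17 (edgeR adjusted p = 0.000643 and 0.00111). In Tox the JAK2-VF Ezh2-null libraries were tight, at 125 to 149.8 CPM, and all above the 42.2 to 83.2 CPM of JAK2-VF libraries. Tnip3, an inhibitor of NF-kappaB signalling, averaged 92.5 ± 22.9 CPM in JAK2-VF Ezh2-null against 46.7 ± 6.49 CPM in JAK2-VF (edgeR adjusted p = 0.00178). Gimap4 (edgeR adjusted p = 0.0357), Serpina3g (edgeR adjusted p = 0.0204) and Ms4a6c lost their calls in 7, 4 and 2 of the 12 fits that left out a library. The other genes of this group kept theirs in all 12.

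Further genes outside these groups rose. Gem, a small Ras-like GTPase, had 26.7, 67 and 112 CPM in JAK2-VF Ezh2-null, against 17.2, 19.7 and 41.2 CPM in JAK2-VF (log2 1.58 ± 0.31, edgeR adjusted p = 0.00592). Nfia, a transcription factor of stem-cell and red-cell fate, was at 363 ± 25.9 CPM in JAK2-VF Ezh2-null against 246 ± 16.9 CPM in JAK2-VF (log2 0.61 ± 0.1, edgeR adjusted p = 0.00135). Akr1c13, an aldo-keto reductase, averaged 195 ± 47.6 CPM in JAK2-VF Ezh2-null against 105 ± 13.9 CPM in JAK2-VF (edgeR adjusted p = 0.000504), and its one low JAK2-VF Ezh2-null library, at 99.4 CPM, was batch 1 replicate 2. Mn1, a transcriptional cofactor rearranged in leukaemia, and Alcam, an adhesion molecule of stem cells, had log2 changes of 1.1 ± 0.22 and 0.98 ± 0.21 (edgeR adjusted p = 0.00658 and 0.0149; Alcam 0.0599 without JAK2-VF batch 1 replicate 1). The single-strand DNA-binding gene Nabp1 had a log2 change of 1.22 ± 0.25 (edgeR adjusted p = 0.00839, or 0.0765 with no term for sex). Cox4i2, Chst2, Foxa3, Ppp1r16b, Tgfbr3, Gm2a (the GM2 ganglioside activator) and Oat also rose, with log2 changes from 0.47 (Oat) to 1.4 (Cox4i2), and each lost its call in 3 to 10 of the 12 fits that left out a library.

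Besides Ezh2 and Igf2, the genes that fell included receptors, an adhesion molecule and regulators. Vldlr, the very low density lipoprotein receptor, had 5.55, 15.9 and 45.4 CPM in JAK2-VF Ezh2-null, against 35.8, 44.1 and 93.5 CPM in JAK2-VF, with 5 of 6 JAK2-VF Ezh2-null libraries below every JAK2-VF library (log2 -2.04 ± 0.4, edgeR adjusted p = 0.00653). Its log2 change was -0.86 within batch 1 and -2.87 within batch 2. The edgeR adjusted p of Vldlr was 0.116 with no term for sex, and 0.109 in a fit of the 12 compared libraries with group and batch. Itga2, a collagen receptor subunit, had 0, 0.316 and 1.14 CPM in JAK2-VF Ezh2-null, against 0.948, 4.54 and 9.38 CPM in JAK2-VF (log2 -3.68 ± 0.9, edgeR adjusted p = 0.0489), and lost its call in 10 of the 12 fits that left out a library. Pgr, the progesterone receptor, had 0.313, 1.4 and 2.07 CPM in JAK2-VF Ezh2-null, against 1.81, 3.39 and 11.5 CPM in JAK2-VF (log2 -2.03 ± 0.47, edgeR adjusted p = 0.0322), and lost it in 6. Cux1, a homeodomain factor whose loss is found in myeloid disease, was at 364, 374 and 403 CPM in JAK2-VF Ezh2-null, against 474, 511 and 586 CPM in JAK2-VF, without overlap (log2 -0.45 ± 0.08, edgeR adjusted p = 0.00159).

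Gstt1, a glutathione transferase, had 12.5, 24.3 and 25.6 CPM in JAK2-VF Ezh2-null, against 32, 35.5 and 46.5 CPM in JAK2-VF, also without overlap (log2 -0.83 ± 0.19, edgeR adjusted p = 0.0255). Zbed5, a zinc-finger gene derived from a transposon, had 2.49, 4.91 and 7.91 CPM in JAK2-VF Ezh2-null, against 6.16, 15.5 and 34.5 CPM in JAK2-VF (log2 -1.72 ± 0.38, edgeR adjusted p = 0.0192). Fyb, an adaptor of T cells and platelets, had 88.8, 94.8 and 144 CPM in JAK2-VF Ezh2-null, against 119, 171 and 201 CPM in JAK2-VF (log2 -0.73 ± 0.16, edgeR adjusted p = 0.0192). In Zbed5 and Fyb, 4 of 6 JAK2-VF Ezh2-null libraries lay below every JAK2-VF library. Diaph1, an actin-nucleating formin, had 46.2, 64.2 and 68.6 CPM in JAK2-VF Ezh2-null, against 68.7, 76.9 and 86.9 CPM in JAK2-VF (log2 -0.49 ± 0.11, edgeR adjusted p = 0.0259), and its groups met without overlapping. Calls of Gstt1, Zbed5, Fyb and Diaph1 were lost in 3, 4, 5 and 6 of the 12 fits that left out a library.

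Most programmes of blood cells did not change past the threshold. Of 56 proliferation genes none passed, 27 had positive and 29 negative values and the median was -0.01. Without JAK2-VF batch 1 replicate 1, 41 proliferation genes were positive, and without JAK2-VF batch 2 replicate 4, 44 were, each time with a median of 0.1 and none called. Their smallest p were those of Mcm4, a subunit of the replicative helicase (log2 -0.34 ± 0.17, edgeR adjusted p = 0.697), and Cdt1, which loads it (log2 0.33 ± 0.26, edgeR adjusted p = 0.931). None passed among 5 CDK inhibitor, 9 JAK and STAT and 21 cytokine receptor genes. None of 27 megakaryocyte and platelet genes passed, 11 were positive and the median was -0.21. The smallest p in that list were those of Gp1ba, the platelet receptor for von Willebrand factor, at 12.8 ± 7.2 CPM in JAK2-VF Ezh2-null against 27.6 ± 3.47 CPM in JAK2-VF (log2 -1.12 ± 0.36, edgeR adjusted p = 0.255), and of Itgb3, the beta chain of the platelet fibrinogen receptor (log2 -0.95 ± 0.32, edgeR adjusted p = 0.29). Without JAK2-VF Ezh2-null batch 1 replicate 2, 3 of 26 megakaryocyte genes passed as lower and the median was -0.58: Gp1ba (log2 -1.44, edgeR adjusted p = 0.0498), Itgb3 (log2 -1.39, edgeR adjusted p = 0.00376) and Cavin2 (log2 -1.45, edgeR adjusted p = 0.00292), the last named after its values were seen. The megakaryocyte median was 0.06 with none called in batch 1 alone and -0.52 in batch 2 alone, where Itgb3 passed (log2 -1.33, edgeR adjusted p = 0.0432).

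None of 7 mast-cell and basophil, 23 lymphoid or 14 endothelial and stromal genes passed, with medians of 0.25, 0.37 and -0.26. The sign of 2 of these medians was not stable: that of the mast-cell list was -0.04 in batch 2 alone, and that of the endothelial list 0.04 without JAK2-VF batch 2 replicate 1.

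None of 34 neutrophil and monocyte genes passed, and the sign of their median was not stable. It was -0.26 in all, 0.18 in batch 2 alone, 0.02 without JAK2-VF batch 1 replicate 1 and 0.06 without JAK2-VF batch 2 replicate 4. Emb, a cell-surface glycoprotein gene with the smallest p of the neutrophil and monocyte list (log2 0.55 ± 0.15, edgeR adjusted p = 0.143), passed as higher without JAK2-VF Ezh2-null batch 1 replicate 2 (log2 0.64, edgeR adjusted p = 0.0252). The summed level of the neutrophil and monocyte list was 1361.5 to 8795 CPM in JAK2-VF Ezh2-null libraries against 2465 to 20654 CPM in JAK2-VF libraries, ranges that overlap widely. Of 29 immediate-early and handling stress genes 28 had negative values, with a median of -0.39 and none called. Their summed level was 8987 to 25634 CPM in JAK2-VF Ezh2-null, against 15292 to 41168 CPM in JAK2-VF. Jun averaged 1064 ± 389 CPM in JAK2-VF Ezh2-null against 2355 ± 1166 CPM in JAK2-VF (log2 -0.78 ± 0.34, edgeR adjusted p = 0.591). Their part in the gene changes above was not tested.

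**Figure D3:**
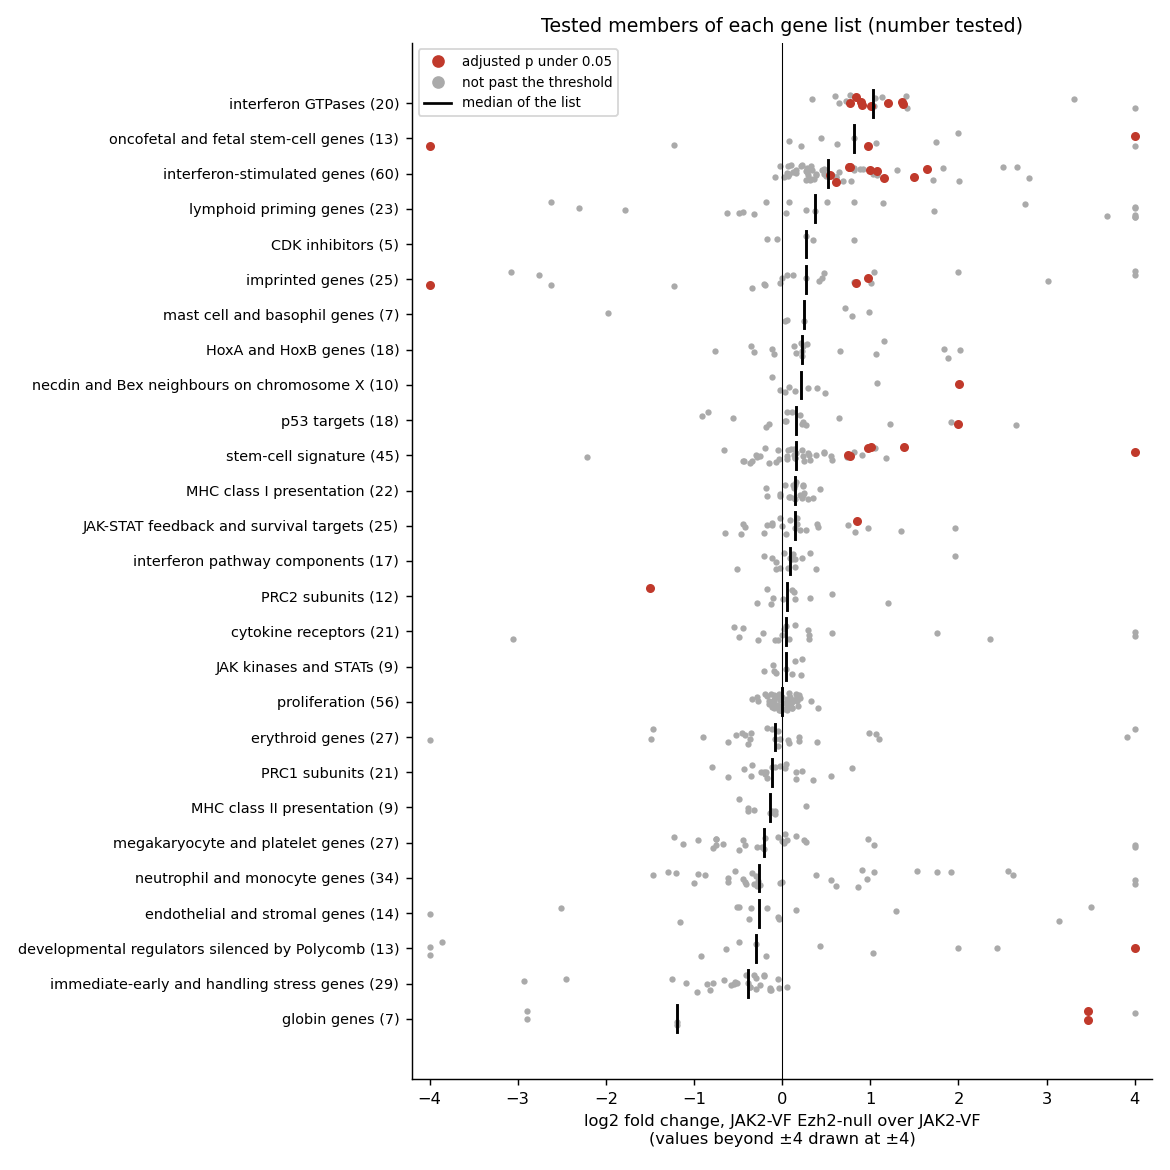
Log2 fold change of JAK2-VF Ezh2-null over JAK2-VF for the tested members of each gene list, ordered by the list median (black bar), with genes at an adjusted p under 0.05 in red. The interferon-induced GTPases lie at the top with a median of 1.02 and 20 of 20 values above 0, and the proliferation genes cluster about 0.

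Cells that had lost 1 Ezh2 allele on the same JAK2-VF background did not differ from JAK2-VF cells past the threshold at any gene: edgeR called 0 of 14945 (0%), and 577 genes had an unadjusted p under 0.05. This comparison uses the same JAK2-VF libraries, so its values are given side by side only. Ezh2 averaged 26.9 CPM in JAK2-VF Ezh2-null, 48.2 CPM in JAK2-VF Ezh2-heterozygous and 75.4 CPM in JAK2-VF libraries. Over the same 3 groups Gbp3 averaged 215, 121 and 91 CPM, Ifit1 83.7, 39.6 and 24.1 CPM, and Hbb-bt 234, 32.5 and 24.3 CPM. Lin28b had no counts in any of the 8 heterozygous libraries, and Igf2 averaged 1.78 CPM there.

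The same loss was then set against cells without JAK2-V617F, where 4 Ezh2-null libraries faced 4 controls and edgeR called 1 gene (0.00669%). The Ezh2-null libraries were 1 female and 3 male and all 4 controls were female, so sex and genotype can hardly be told apart there. Of the 60 genes that rose within JAK2-VF, 37 had a positive log2 change in Ezh2-null against control cells, against 7227 of 14945 (48.4%) of all genes, and 24 had an unadjusted p under 0.05 there, of which 20 were positive and 4 negative. Over all genes 891 (5.96%) had such a p. The interferon-induced GTPases had a median of 0.55 in that comparison, with 19 of 20 positive and none called, and the interferon-stimulated genes 0.36, with 50 of 60 positive. Ifit1 had a log2 change of 1.26 ± 0.36 without JAK2-VF and 1.64 ± 0.29 with it. Hbb-bt was at 29.2 ± 13 CPM in Ezh2-null and 30.1 ± 20 CPM in control libraries, a log2 change of -0.28 ± 0.54.

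The difference between the 2 effects was itself tested, and 1 gene of 14945 (0.00669%) passed: Lgals1. It rose by 1.39 ± 0.2 with JAK2-VF and changed by -0.55 ± 0.25 without it, at 25.3 ± 6.58 CPM in Ezh2-null and 29.8 ± 5.88 CPM in control libraries. The difference of the log2 changes was 1.94 ± 0.34 (edgeR adjusted p = 0.0277). Hbb-bt had a difference of 3.75 ± 0.77 (edgeR adjusted p = 0.0775) and Xbp1 one of 1.3 ± 0.27 (edgeR adjusted p = 0.0775), and neither passed. With no term for sex the adjusted p of Lgals1 was 0.212, and the 2 genes called were Hbb-bt and its copy Hbb-b2 with identical counts (edgeR adjusted p = 0.0399). DESeq2 called 92 genes in this test. No interferon gene passed this test, and the differences of Gbp3 and Ifit1 were 0.67 ± 0.26 and 0.38 ± 0.49 (edgeR adjusted p = 0.747 and 1). With 4 libraries in each of the groups without JAK2-VF, an effect of equal size in both settings is not shown by these p-values. Without JAK2-VF Ezh2-null batch 1 replicate 2 the test called 9 genes, and it called none without any of 7 other libraries, where the adjusted p of Lgals1 reached 0.118. It called none without the 2 libraries labelled Ezh2-heterozygous that stood apart, where Lgals1 had an adjusted p of 0.0662. Those 7 were control batch 1 replicate 1 and batch 2 replicate 4, Ezh2-null batch 2 replicates 1 and 3, JAK2-VF batch 1 replicate 1, and JAK2-VF Ezh2-null batch 2 replicates 1 and 2.

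**Figure D4:**
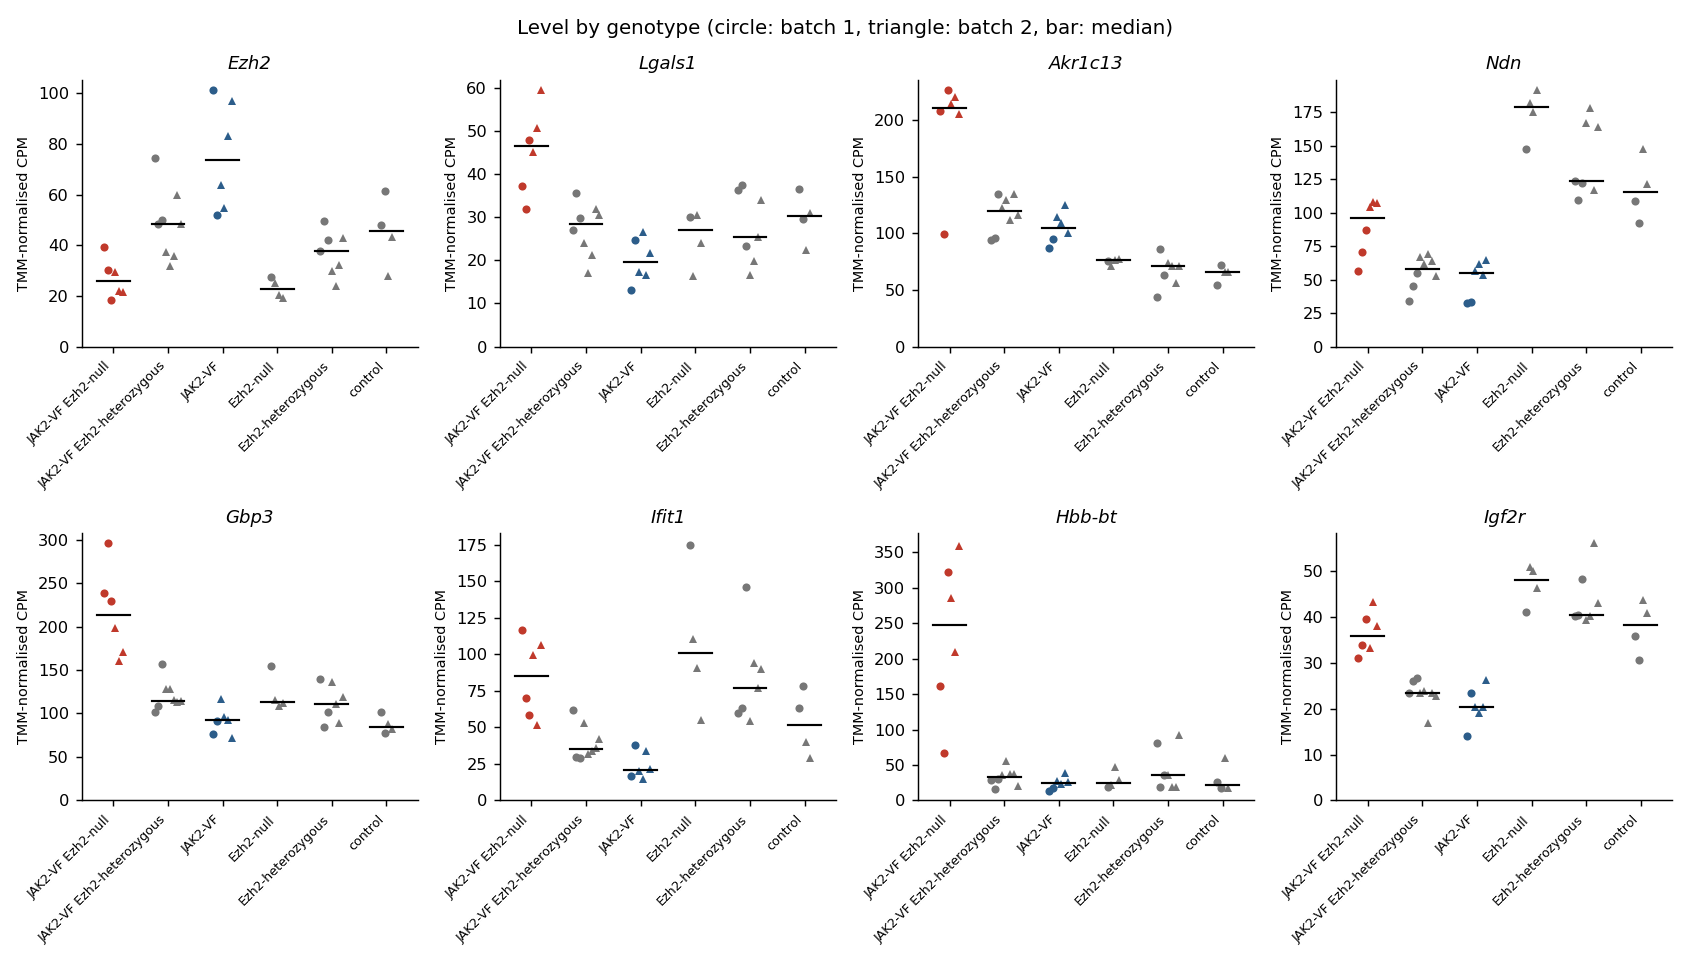
Level of 8 genes in all 6 genotypes (TMM-normalised CPM, linear axis from 0), circles for batch 1, triangles for batch 2, bars for the group median. Akr1c13, Hbb-bt, Lgals1 and Gbp3 had their highest group mean of the 6 in JAK2-VF Ezh2-null libraries, at 195, 234, 45.3 and 215 CPM. By contrast, the means of Ndn and Igf2r were higher in each of the 3 groups without JAK2-VF.

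**Figure D5:**
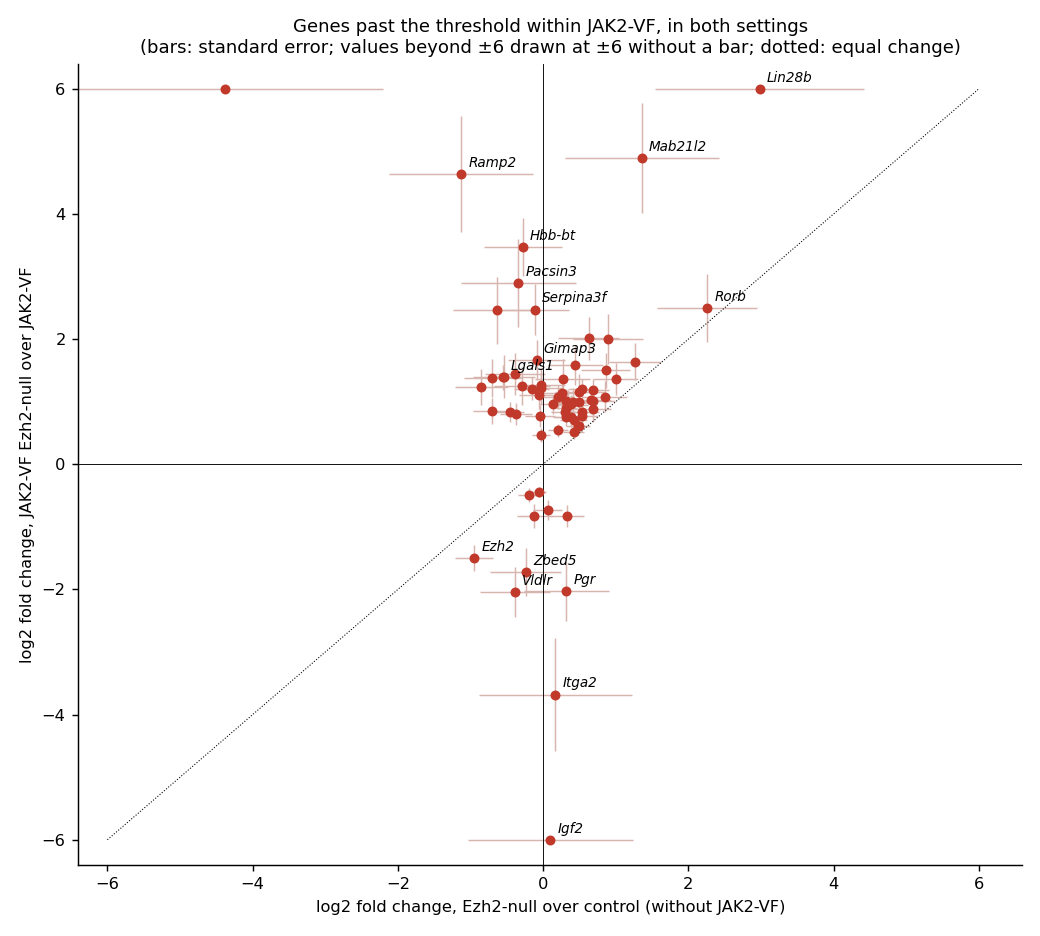
Log2 fold change on loss of both Ezh2 alleles with JAK2-VF (vertical axis) and without it (horizontal axis) for the genes called within JAK2-VF, with SE bars. Points on the dotted line would have changed equally. Hbb-b2, with counts identical to Hbb-bt, is not drawn. Of the 60 rising genes 37 lie right of 0, and Hbb-bt and Ramp2 lie left of it.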

How the data were processed

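RNA from 1000 sorted LT-HSCs per library was amplified with a SMARTer low-input kit, per the labels' protocols. The deposited files hold raw counts per gene from the authors, aligned with STAR to mm9 per the submitters' processing notes; versions, counter, annotation and strand use are, for this series, not given in the sources used here; antisense and near-identical genes may share reads. Each file had 19139 entries; 1, a part of Ezh2, did not enter library sizes or tests.

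Counts were scaled by TMM and tested with edgeR 4.0.16 (R 4.3.3; robust quasi-likelihood, filterByExpr, 14945 genes kept, 4193 left out) on the 35 libraries with group, batch and sex as terms, and p-values were adjusted by Benjamini-Hochberg with a threshold of 0.05. Alternatives used DESeq2 1.42.0, limma-voom 3.58.1, other normalization, filters and terms, single batches, females alone and each library left out. Scripts were tested on simulated data. Intervals and floors (3 counts, 95%) cover counting error only.

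The members and gene lists were chosen with earlier results of these data known. The genes named are Ezh2, Ezh1, Jak2, called genes other than predicted, RIKEN or sex-linked marker genes, and up to 2 of smallest p in most lists with no call; genes said to be named after their values were seen, Lin28a, Mab21l1, Hba-a1, Hbb-bs and Alas2 were added after their values were seen. Promoters are from RefSeq, build GRCm38.p6, and 45 of the 60 rising genes had an entry.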

Additional observations from a re-analysis of the deposited data

Results flagged for a closer look

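Among 133 gene groups of 6 libraries examined, 13 had 1 library far from the other 5 by Dixon's criterion at 95%, and chance alone flags about 1 group in 20. JAK2-VF Ezh2-null batch 1 replicate 2 accounted for 6 of them: it was highest for Gbp2 (509.0 CPM), Tgtp1 (115.1 CPM) and Tgtp2 (356.5 CPM), and lowest for Akr1c13 (99.4 CPM), Cox4i2 (32.5 CPM) and Ifitm1 (728.5 CPM). In the same group, Irf7 was lowest in batch 1 replicate 3 (35.2 CPM) and Mapk12 in batch 1 replicate 1 (0.853 CPM).

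In the JAK2-VF group, batch 1 replicate 1 was lowest for Ebi3 (24.2 CPM) and stood apart for Oasl2 (115.2 CPM) and Zbp1 (4.88 CPM). Rorb was highest in JAK2-VF batch 1 replicate 2 (15.4 CPM), and Lin28b had counts only in JAK2-VF batch 2 replicate 2 (0.0649 CPM) of that group. Lgals1 was the gene whose Ezh2-null effect differed with and without JAK2-VF, by a log2 value of 1.94 (edgeR adjusted p = 0.0277).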

How the results depend on the processing

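Against 71 genes called, DESeq2 called 193, a fit of the 12 compared libraries with group, batch and sex called 22, batch 1 alone 1, batch 2 alone 22 and females alone 8; leaving out each library gave 38 to 66. With DESeq2 size factors 72 genes were called, and 69 without a low-count filter, holding 71 and 63 of the 71. Limma-voom called 104 and the fit with no term for sex 80, holding 57 and 60 of them. Vldlr, Nabp1, Mapk12, Pacsin3, Foxa3, Fyb, Diaph1, Cox4i2 and Socs2 were among those lost with no term for sex. The 12 libraries with group and batch gave 78, of which 45 were among the 71. DESeq2 held 70 of the 71, the 12-library fit with sex 16, batch 1 alone 0, batch 2 alone 18 and females alone 5. For the difference of effects with and without JAK2-VF, 1 gene was called, against 92 with DESeq2, 2 others (Hbb-bt and its copy) with no term for sex, 0 without the 2 libraries labelled Ezh2-heterozygous that stood apart, and 0 to 9 when each library was left out. Same-numbered libraries showed little shared deviation (r from -0.039 to 0.099), and only batch 2 replicate 1 matched its own number best. Few pairs could be compared, and the 2 JAK2-VF libraries of batch 1 have mirrored deviations, so this check cannot exclude that the numbers pair libraries. With the replicate block 52 genes were called, and 0 for the difference of effects. The share of the Ezh2 part differed by -8.51 points in batch 1 and -7.18 points in batch 2, where the group sizes do not allow a p under 0.05. None of the 66 named called genes changed direction under the alternatives run. Genes without a call could change direction, as most MHC class II genes did in batch 1 alone. For the 66 named called genes, 192 of the values with a library left out and 301 of those under other settings lost the threshold, while 600 and 489 kept it. The cause of these changes was not tested. Fewer libraries remain in single batches, and genes under about 1 CPM rest on few counts.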
